A study of Capra hircus with 198 samples.

Results

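Antisense long non-coding RNAs (lncRNAs) of the goat and the genes they are annotated against, called hosts here, were compared in 33 tissues. The features were taken from the deposited lncRNA annotation by 3 conditions. The gene record was classed as antisense, its name was a gene symbol followed by -AS and a number, and that symbol was also listed in the gene count table. Features of the mitochondrial genes were left out. This gave 2401 antisense features of 39734 features in the count table, against 2251 hosts, out of 2404 antisense records. The choice used names and annotation and no measured value. The tissues came from 6 adult female Murciano-Granadina goats, a Spanish dairy breed. Goats 2, 3 and 6 were in lactation and goats 54, 64 and 73 were dry, so each tissue had 3 lactating and 3 dry goats, and each goat gave 1 library per tissue. The labels give no genetic modification and no treatment, so lactation state is the only labelled difference between the goats, and it cannot be told apart from any other difference between these 2 sets of 3 animals. Total RNA was extracted and made into strand-specific libraries, a protocol that keeps the strand a molecule came from.

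A natural antisense transcript is transcribed from the DNA strand opposite to a gene and can share sequence with that gene in reverse complement. Some are known to act on the gene in place, for example by recruiting chromatin-modifying proteins, by colliding with transcription from the other strand, or by pairing with the sense RNA, and many have no known function. Antisense partners are frequent at genes of developmental transcription factors, and the 2 transcripts of such a pair often appear in the same tissues. The sources used here do not say whether the strand of a read was used in counting. Without strand, reads of a gene and of its antisense partner cannot be told apart. With strand but in the setting opposite to that of the library kit, the reads of the partners would be exchanged, and the order of feature and host given below would be turned. Neither was tested. Each value is therefore the value of the deposited feature, and every level, order and difference of an antisense feature and its host below carries this limit.

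The total count of a library was between 1309071 and 8967448, with a median of 4631624. A feature's level is given in CPM, its counts per 1000000 counts of the library, and levels are not divided by length. A count of 3, used here as the floor, was worth 0.335 to 2.29 CPM depending on the library. Libraries were compared by rank correlation over the 24017 features with a mean of at least 1 CPM. By this measure 170 libraries were closest to the other libraries of their own tissue and 28 (18 lactating, 10 dry) were closest to another tissue. Among these were the pineal libraries of goats 2, 3 and 6, which were closest to hypothalamus or rhinencephalon and had 0, 0 and 0.419 CPM of TPH1, the melatonin pathway enzyme that marks the pineal gland, against 125, 57.1 and 100 CPM in the dry goats. FOXL2, a marker of ovarian granulosa cells, had 4.51, 14.1 and 6.12 CPM in ovaries of lactating goats, against 0, 0.173 and 0.834 CPM in dry goats. UMOD, a marker of the thick ascending limb, had 71.9, 626 and 224 CPM in the kidney medulla of lactating goats, against 57.5, 41.6 and 48.5 CPM in dry goats. KRT4, a marker of the squamous lining, was at 0 in the esophagus of goat 6, and PGC, a marker of the gastric glands, was at 0 in the abomasum of goat 2. Several counts that lead a result below are also given without these libraries or tissues, and the part of tissue content in the lactation results was not tested. In whole tissue, fewer cells of a type and less RNA per cell cannot be told apart.

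By the deposited annotation, the 2401 features were made of 4081 transcripts, all placed on the strand opposite to their host with exonic overlap. A feature had a median of 2569 exonic bases (200 to 88234) over a median span of 6518 bases (246 to 1979004). Most were simple, since 1640 had 1 transcript. The transcript with the most exons had 2 exons in 1786 features and 3 or more in 564, while 51 features had a single exon. On the plus strand lay 1251 features and on the minus strand 1150. Of the features, 1854 had a protein-coding host, 360 a lncRNA host, 93 a transcribed pseudogene and 31 a microRNA gene. Most hosts (2135) had 1 antisense feature, 99 had 2 and 17 had 3 or more, up to 8. For 896 features the whole span lay inside the span of the host in the RefSeq ARS1.2 annotation, and the median feature had 98.2% of its span inside. Positions below are those of the deposited annotation, which names no genome build.

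The rows deposited as antisense features held a large share of all counts, whichever strand was read. They took 34.0% ± 7.61 of a library's total (SD over the libraries of 6 goats and 33 tissues; 16.2% to 54.4%), against 1.66% ± 0.411 for their hosts (0.512% to 2.98%). In every library the antisense features together held more counts than the hosts together, 11.4 to 44.3 times as many. KLHDC1-AS1 and PGK2-AS1 decided much of this, since without these 2 features the share was 19.2% ± 4.48. By tissue, the mean share was lowest in masseter muscle (17.2%), heart (17.4%) and diaphragm (23.7%) and highest in mandibular lymph node (44.7%), ovary (42.6%) and spleen (42.5%).

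Pair by pair, the row of the feature was mostly above the row of the host, under the same limit on strand. The median feature had a mean over the 33 tissue means of 26.4 CPM, against 1.75 CPM for the median host, and 2046 of 2401 features had a higher mean than their host. Other deposited lncRNA classes were set beside this for pairs with both partners reaching 1 CPM in a tissue mean. The lncRNA was above its gene in 85.2% of antisense, 68.2% of overlapping, 55.3% of divergent and 31.1% of intronic pairs. At 5 CPM these shares were 84.8%, 77.5%, 59.3% and 47.5%, with no test made. The antisense feature had more counts than its host in every library for 1153 pairs, while the host had more in every library for 55. Antisense features also reached 1 CPM in more tissues: 1670 of 2401 did so in all 33, against the hosts of 608. The median tau, an index of tissue specificity that runs from 0 for equal levels everywhere to 1 for a single tissue, was 0.286 for the features and 0.567 for the hosts. Both measures depend on level, since the cutoff is fixed and tau was taken on the log of CPM plus 1. The features had the higher levels, and breadth apart from level was not tested. Other protein-coding genes had levels in the same range, with no test made. The 1744 protein-coding hosts had a median of 1.97 CPM (quartiles 0.664 and 5.57), against 2.24 CPM (quartiles 0.525 and 6.29) for the 18803 protein-coding genes without an antisense record.

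The order within a pair was tested with limma on the log2 ratio of antisense to host count within each library, over the 6 goats of a tissue. Summed over tissues, 68235 tests could be made. The antisense feature was higher in 55558 of them (81.4%) and the host in 7339 (10.8%), with Benjamini-Hochberg adjustment over the pairs of a tissue. The share of pairs with the antisense feature higher was between 79.7% in liver and 83.5% in hippocampus, and the share with the host higher was between 8.97% in esophagus and 12.7% in cerebellar hemisphere. The median log2 ratio was 4.66 (quartiles 2.02 and 6.65). Of 2370 pairs tested in at least 1 tissue, 1240 had the antisense feature higher in all 33 tissues, 75 had the host higher in all 33 tissues and 276 changed order between tissues. These are ratios of counts that are not per length. Dividing each count by the annotated gene span gave 57554 tests with the antisense feature higher and 5194 with the host higher, but the span counts introns and the median feature spans 53.2% of its host, so this raises the antisense side by construction and does not settle the effect of length.

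**Figure D1:**
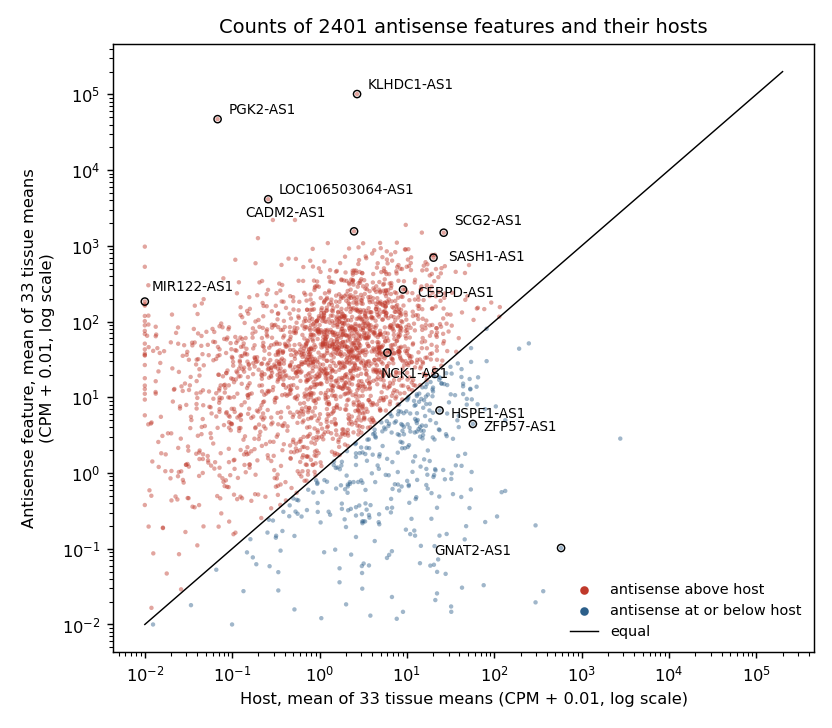
Mean level of each of the 2401 antisense features (vertical axis) against its host (horizontal axis), each the mean of 33 tissue means in CPM plus 0.01 on log axes, with the line of equality. The 2046 features above their host (red) spread over the upper left, from KLHDC1-AS1 at 101068 CPM down, and hosts such as GNAT2 stand far to the right of the line.

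The antisense features with the most counts were led by KLHDC1-AS1 and PGK2-AS1. KLHDC1 encodes a kelch-repeat protein of a ubiquitin ligase, and KLHDC1-AS1 lies at chr10:60206538-60400652 on the plus strand. KLHDC1-AS1 averaged 101068 CPM over tissues, against 2.68 CPM for KLHDC1. Its abomasum libraries had a lowest, median and highest value of 11138, 178067 and 251911 CPM, against 1.74, 3.74 and 5.31 CPM for KLHDC1, and its lowest tissue mean was 55480 CPM in the pineal gland. The feature was thus high in all tissues, and the abomasum values spanned a wide range. PGK2 encodes a testis form of the glycolytic enzyme phosphoglycerate kinase, and PGK2-AS1 lies at chr23:26653584-26706091 on the minus strand. PGK2-AS1 averaged 47119 CPM, against 0.0581 CPM for PGK2. In ovary PGK2-AS1 had a lowest, median and highest value of 82754, 102591 and 149216 CPM, while PGK2 was at 0 in all 6 ovary libraries.

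Other abundant antisense features were concentrated in a few tissues. LOC106503064-AS1 (chr17:187871-648079, plus strand) had 33586, 38813 and 113876 CPM as lowest, median and highest value in lymph node, and a mean of 44313 CPM in spleen, against 4128 CPM over all tissues. Its host LOC106503064 had 1.83, 3.51 and 8.66 CPM in lymph node. SCG2 encodes secretogranin II, a protein of the secretory granules of endocrine cells. SCG2-AS1 (chr2:23997755-24005717, minus strand) had 8314, 14632 and 18751 CPM in neurohypophysis, against 143, 269 and 430 CPM for SCG2, and a mean of 13608 CPM in adenohypophysis. The hypophysis thus had the highest level of both partners. CADM2 encodes a synaptic cell adhesion molecule, and CADM2-AS1 (chr1:31668645-32211693, minus strand) had 6886, 7511 and 8413 CPM in cerebellar hemisphere, against 3.45, 6.28 and 12.3 CPM for CADM2. YWHAG encodes a 14-3-3 adaptor protein abundant in brain, and YWHAG-AS1 (chr25:35287265-35311800, plus strand) had 4377, 4771 and 5375 CPM in frontal neocortex, against 1.95, 35.7 and 60.5 CPM for YWHAG. The mammary gland held the highest level of KIAA1217-AS1, with 1424, 1982 and 2701 CPM, and lung that of DNAJB4-AS1, the partner of a heat-shock co-chaperone gene, with 1613, 1877 and 2139 CPM. In all, 491 features and 13 hosts had a mean of at least 100 CPM.

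A small set of pairs stood the other way. GNAT2, the cone transducin alpha subunit of photoreceptors, averaged 582 CPM and had more counts than GNAT2-AS1 in every library, with 0.0923 CPM for GNAT2-AS1. GNAT2 was highest in neck skin, with a lowest, median and highest value of 508, 1155 and 1595 CPM. CDH23-AS1 averaged 0.548 CPM, against 122 CPM for CDH23, a cadherin known from the tip links of inner-ear hair cells. CDH23 was highest in spleen, with 230, 336 and 509 CPM. PP2D1-AS1 averaged 0.570 CPM, against 134 CPM for PP2D1. Both partners were well above the floor at TCEANC2, where TCEANC2-AS1 averaged 30.0 CPM, against 81.8 CPM for TCEANC2.

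The class of the host went with the order of the pair. Among features with a protein-coding host, 86.2% had a higher mean than the host, with medians of 29.3 CPM for the features and 1.96 CPM for the hosts. The share was 76.9% for lncRNA hosts and 95.7% for transcribed pseudogenes. At the constant-region segments of immunoglobulin and T cell receptor genes, 3 of 10 features (30.0%) were above their host. These 10 features share 3 hosts, so their comparisons are not independent. All 31 features at microRNA genes were above theirs, with a median of 41.0 CPM against 0 for the microRNA genes, whose mature products are shorter than an RNA-seq library of this kind keeps. No test was made between classes.

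Antisense features mostly followed their hosts across tissues. Over 1967 pairs in which both partners reached a mean of 1 CPM in at least 1 tissue, the median Spearman correlation of the 33 tissue means was 0.533 (quartiles 0.288 and 0.717). The correlation was positive in 1814 pairs, at least 0.5 in 1055 (53.6%) and at most -0.5 in 6. In 506 pairs (25.7%) both partners had the same highest tissue, close to the share in overlapping pairs (25.9%) and above that in intronic (16.9%) and divergent pairs (13.5%), with no test made. The deposited classes in which the lncRNA lies elsewhere relative to its gene had lower medians, 0.465 over 1489 overlapping, 0.356 over 3953 intronic and 0.327 over 141 divergent pairs. These are descriptions over 33 tissues that share goats and library totals. Over all libraries with tissue means removed, the median correlation was 0.169.

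The pairs with the highest correlations were led by CEBPD-AS1. CEBPD and CEBPB encode CCAAT/enhancer-binding proteins, which act in inflammation, fat cells and liver. CEBPD-AS1 (rho 0.98) had a lowest, median and highest value of 588, 846 and 1383 CPM in lung, against 17.5, 27.6 and 40.6 CPM for CEBPD. CEBPB-AS1 (rho 0.96) had 402, 513 and 686 CPM in lung, against 10.2, 14.8 and 21.4 CPM for CEBPB. Lung also held the highest values of CLEC14A-AS1 (rho 0.95), the partner of an endothelial lectin gene, with 439, 521 and 696 CPM, against 4.85, 10.3 and 20.2 CPM for CLEC14A. CAMK2N1 encodes an inhibitor of the calcium/calmodulin-dependent kinase CaMKII. CAMK2N1-AS1 (rho 0.95) had 1389, 1642 and 2841 CPM in frontal neocortex, against 1.52, 14.9 and 22.1 CPM for CAMK2N1. FOXQ1 encodes a forkhead factor known from the gastric epithelium of mice, and FOXQ1-AS1 (rho 0.95) had 208, 363 and 417 CPM in abomasum, against 2.50, 10.7 and 12.5 CPM for FOXQ1. In each of these pairs the antisense feature was far above the host in its highest tissue.

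The few pairs with opposed profiles differed in which tissue led. HSPE1 encodes the mitochondrial co-chaperonin HSP10. HSPE1-AS1 (rho -0.62) was highest in cerebellar hemisphere, with 14, 19.8 and 29.2 CPM, against 4.10, 11.3 and 15.6 CPM for HSPE1. In adrenal cortex HSPE1-AS1 had 2.48, 5.04 and 5.91 CPM, against 77.2, 108 and 153 CPM for HSPE1, so the partners were in opposite order in these tissues. NCK1 encodes an SH2/SH3 adaptor of receptor signalling. NCK1-AS1 (rho -0.54) had 226, 460 and 522 CPM in cerebellar hemisphere, against 5.57, 10.3 and 15.4 CPM for NCK1. In spleen NCK1-AS1 was at 0 in all 6 libraries, against 6.80, 13 and 15.8 CPM for NCK1. SGCD encodes delta-sarcoglycan of the dystrophin complex in muscle membranes. SGCD-AS1 (rho -0.51) had 235, 325 and 544 CPM in rhinencephalon, against 4.79, 6.22 and 9.34 CPM for SGCD, and 63.4, 88.6 and 110 CPM in spleen, against 37.2, 88.4 and 148 CPM for SGCD. Without the 28 libraries closest to another tissue, rho was -0.58 for HSPE1-AS1, -0.59 for NCK1-AS1 and -0.44 for SGCD-AS1.

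**Figure D2:**
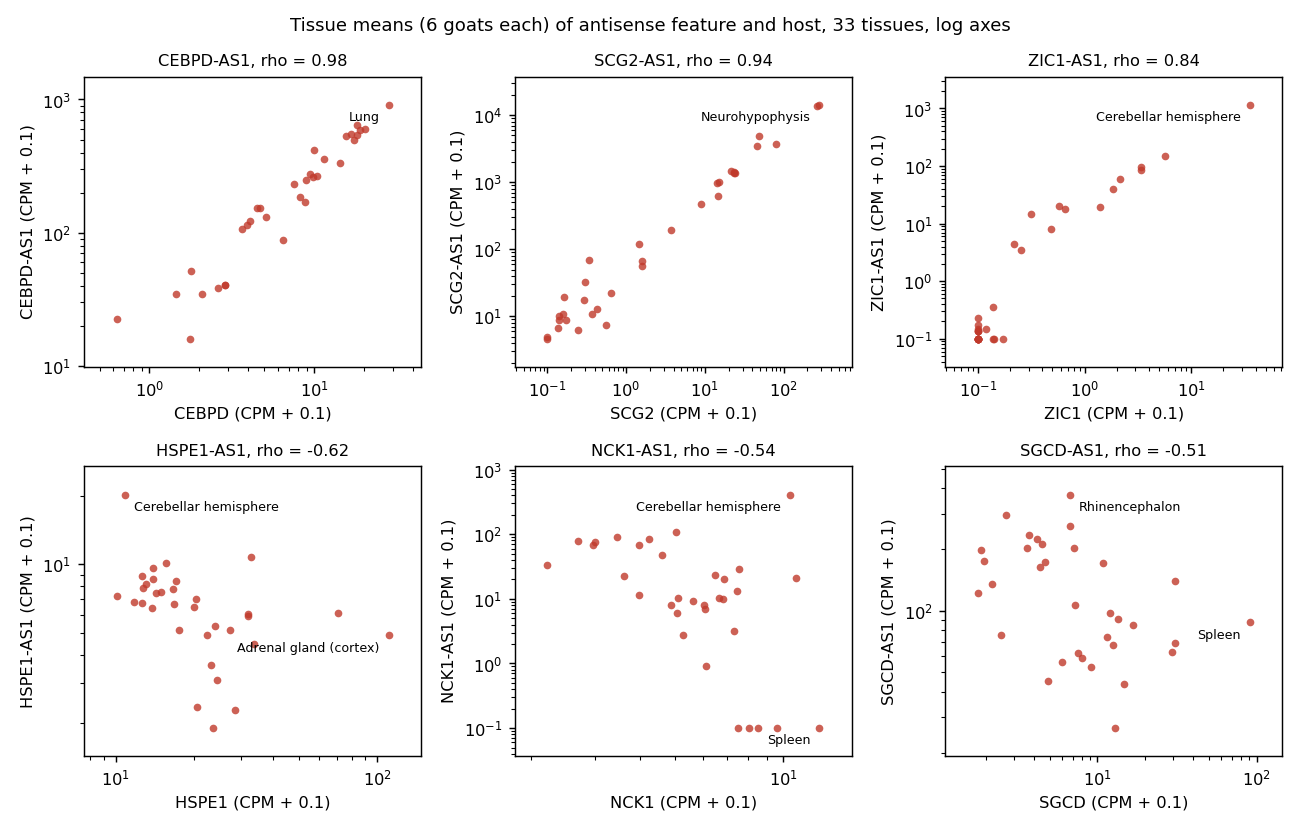
Tissue means of 6 pairs, antisense feature (vertical axis) against host (horizontal axis), in CPM plus 0.1 on log axes, with 1 point for each of 33 tissues (mean of 6 goats) and the highest tissue of each partner named. CEBPD-AS1, SCG2-AS1 and ZIC1-AS1 rise with their hosts, while HSPE1-AS1, NCK1-AS1 and SGCD-AS1 are higher where the host is low, with NCK1-AS1 in cerebellar hemisphere as an exception.

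The ratio of antisense feature to host differed between tissues in most pairs. A limma F-test over the 33 tissues called 1738 of 2049 pairs (84.8%) after Benjamini-Hochberg adjustment, and 1726 without the 28 libraries. The tissue means of the log2 ratio spanned a median range of 3.62 within a pair (1.13 to 13.3), against a median standard deviation of 1.26 between goats of a tissue. Length plays no part in this comparison, since it is the same in every tissue.

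Among pairs that changed order, ZFP57-AS1 had the widest range. ZFP57 encodes a zinc-finger protein that keeps the methylation of imprinted genes. ZFP57-AS1 had a lowest, median and highest value of 3.65, 5.94 and 29.0 CPM in adrenal cortex, against 0, 0 and 0.178 CPM for ZFP57, a log2 ratio of 6.14 ± 0.52 (SE). In hippocampus ZFP57-AS1 had 0.747, 1.55 and 5.25 CPM, against 84.1, 427 and 783 CPM for ZFP57, a log2 ratio of -7.18 ± 0.43. Over the 32 tissues tested, ZFP57-AS1 was higher in 19 and ZFP57 in 9. MYH8 encodes the perinatal myosin heavy chain of skeletal muscle. MYH8-AS1 had 39.3, 56.9 and 76.4 CPM in diaphragm, against 0.173, 0.727 and 2.11 CPM for MYH8 (log2 ratio 6.08 ± 0.41). In thyroid MYH8-AS1 had 0, 0.687 and 1.33 CPM, against 26.5, 67.1 and 150 CPM for MYH8 (log2 ratio -6.99 ± 0.36). In the abomasum PRR15L-AS1 had 194, 296 and 322 CPM, against 2.43, 3.32 and 6.46 CPM for PRR15L (log2 ratio 6.22 ± 0.33). In the rostral colliculus PRR15L-AS1 was at 0 in all libraries, against 5.54, 8.63 and 11.9 CPM for PRR15L.

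Further pairs of this kind involved a mix of tissues. FLRT1 encodes a leucine-rich adhesion protein that binds the fibroblast growth factor receptor. FLRT1-AS1 had 17.7, 41.5 and 81.6 CPM in mandibular lymph node, against 0.909, 4.99 and 14.7 CPM for FLRT1. In adenohypophysis FLRT1-AS1 had 0, 0 and 0.773 CPM, against 9.41, 33.0 and 74.0 CPM for FLRT1. The lymph node was thus one of few tissues where the antisense feature led. ATP13A5 encodes a cation-transporting ATPase, and ATP13A5-AS1 had 6.61, 11.2 and 21.2 CPM in thyroid (log2 ratio 5.17 ± 0.73). In masseter muscle ATP13A5-AS1 had 0, 0.631 and 2.21 CPM, against 29.1, 51.1 and 75.9 CPM for ATP13A5 (log2 ratio -6.48 ± 0.67). APOBEC4-AS1, the partner of a cytidine deaminase family gene, was above its host in lung, with 13.2, 39.0 and 49.2 CPM and a log2 ratio of 6.06, and below it in cerebellar hemisphere with a log2 ratio of -4.69.

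**Figure D3:**
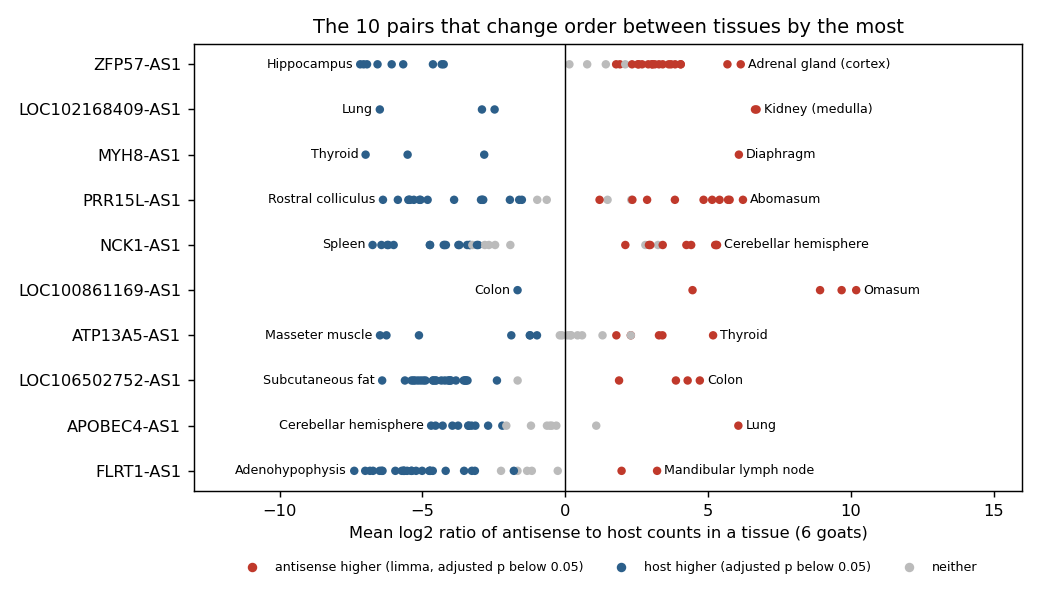
Mean log2 ratio of antisense to host counts in each tissue tested (horizontal axis, 6 goats per point) for the 10 pairs with the widest range among those that change order, with the tissues at either end named. Red points are tissues with the antisense feature higher and blue points tissues with the host higher by limma, and ZFP57-AS1 extends from -7.18 in hippocampus to 6.14 in adrenal cortex.

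Few antisense features were enriched in 1 tissue. By the rule used (a tissue mean of at least 1 CPM at least 5 times that of any other tissue, with its 6 libraries all above the rest), 16 of 2401 features were enriched (0.666%), against 482 of all 39734 features (1.21%) and 20 of 2251 hosts (0.888%). Liver held the most, 6 of the 16, and also held the most of the enriched hosts (7 of 20) and of all enriched features (231 of 482). MIR122 is the host of the liver microRNA miR-122, and MIR122-AS1 had 4894, 5649 and 6944 CPM as lowest, median and highest value in liver, 280 times the next tissue, with MIR122 itself at 0. ONECUT1 encodes hepatocyte nuclear factor 6, and ONECUT1-AS1 had 372, 714 and 799 CPM in liver, against 2.54, 7.54 and 8.77 CPM for ONECUT1. PPP1R3B encodes the subunit that brings protein phosphatase 1 to liver glycogen, and PPP1R3B-AS1 had 996, 2217 and 7489 CPM, against 11.6, 17.6 and 61.7 CPM for PPP1R3B.

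Features with named hosts were also enriched in thyroid, kidney medulla, brain and colon. SASH1 encodes a signalling scaffold, and SASH1-AS1 had 7558, 12229 and 17390 CPM in thyroid, 12.7 times the next tissue, against 59.7, 107 and 231 CPM for SASH1. COL8A1 encodes a chain of type VIII collagen, and COL8A1-AS1 had 826, 1397 and 2785 CPM in thyroid, against 28.7, 42.8 and 69.5 CPM for COL8A1. PAQR5 encodes a membrane progesterone receptor, and PAQR5-AS1 had 789, 1055 and 2143 CPM in kidney medulla, against 12.5, 24.8 and 44.9 CPM for PAQR5. ZIC1 encodes a zinc-finger factor of cerebellar granule cells. ZIC1-AS1 had 930, 1155 and 1320 CPM in cerebellar hemisphere, 7.72 times its mean of 148 CPM in the bridge of the brainstem, against 29.1, 36.4 and 39.5 CPM for ZIC1. VIPR1 encodes a receptor of vasoactive intestinal peptide, and VIPR1-AS1 had a mean of 36.6 CPM in colon, 6.91 times the next tissue. SOX14-AS1, the partner of a neural SOX factor gene, had 43.6, 56.2 and 69.2 CPM in rostral colliculus. The rule is sensitive to single libraries, since 53 features met it without the 28 libraries closest to another tissue. All features were not counted in that setting, so the lower share of antisense features given above holds only with every library included.

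Antisense features of developmental transcription factors were described as a group. Of 120 such genes listed, 23 were hosts, with 24 antisense features, against 1744 hosts among the 20547 protein-coding genes of the count table (8.49%), a difference that was not tested. In 23 of the 24 the antisense feature had the higher mean, with medians of 8.80 CPM for the features and 0.842 CPM for the hosts. DLX6-AS1 was the exception, with 1.11 CPM against 1.70 CPM for DLX6, a homeobox factor of forebrain interneurons. Over the 23 pairs in which both partners reached 1 CPM, the median tissue correlation was 0.632, against 0.533 over all pairs, and 8 had the same highest tissue. SOX21-AS1 (rho 0.91), the partner of a SOX factor of neural and epithelial progenitors, had 95.7, 270 and 477 CPM in rumen. TBX5-AS1, the partner of a T-box factor of heart and lung development, had 33.7, 55.0 and 127 CPM in lung, against 4.14, 5.82 and 6.76 CPM for TBX5. NKX2-5-AS1, the partner of a cardiac homeobox factor that mice also need to form a spleen, had 61.6, 73.5 and 82.9 CPM in spleen and 55.3, 67.3 and 85.3 CPM in heart. TP63-AS1 (rho 0.18) did not follow its host, a master factor of squamous epithelium. In diaphragm TP63-AS1 had 118, 271 and 427 CPM, against 0, 1.38 and 2.62 CPM for TP63. In rumen TP63-AS1 had 27.8, 36.2 and 50.5 CPM, against 5.24, 31.9 and 50.3 CPM for TP63.

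Genes of other functions had few antisense features. Of 28 listed genes of milk and lipid synthesis none was a host. Of 32 genes of energy metabolism 2 were hosts, PGK2 and PPARGC1A, a coactivator of mitochondrial biogenesis. PPARGC1A-AS1 (rho 0.90) had 311, 691 and 1889 CPM in masseter muscle, against 14.8, 25.8 and 71.8 CPM for PPARGC1A. Of 34 sarcomere and calcium-handling genes, 2 were hosts, CACNA1C (rho 0.83) and DMD. CACNA1C encodes the L-type calcium channel of heart and smooth muscle, and DMD encodes dystrophin. DMD-AS1 (rho -0.27) had 125, 129 and 137 CPM in cerebellar hemisphere, against 4.58, 8.36 and 12 CPM for DMD. In diaphragm DMD-AS1 had 42.0, 58.1 and 86.9 CPM, against 54.4, 77.5 and 96.7 CPM for DMD. Among neuronal genes, KCND2, a potassium channel of dendrites, and DLG2, a scaffold of the postsynaptic density, were hosts. KCND2-AS1 had 5653, 6554 and 6830 CPM in cerebellar hemisphere, against 12.7, 16.9 and 19.6 CPM for KCND2, and DLG2-AS1 had 1799, 2610 and 3875 CPM in rhinencephalon. Of the hormone and clock genes CLOCK was the one host, with CLOCK-AS1 at 386 CPM, against 22.9 CPM for CLOCK.

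Lactating and dry goats were then compared in each tissue with edgeR's quasi-likelihood test, adjusted by Benjamini-Hochberg over all features tested in the tissue. Summed over tissues, antisense features had 1169 calls higher (1.89%) and 844 lower (1.36%) in lactating goats in 61978 tests (3.25% in either direction). All features had 10991 calls in 578253 tests (1.9%, with 0.925% higher and 0.976% lower), and hosts had 607 in 29725 tests (2.04%). Most of the antisense calls, 1083 of 2013, came from the kidney medulla, ovary and pineal gland. The markers of these tissues did not overlap between lactating and dry goats, but the same held for 15 of the 26 tissues with a marker, 9 higher and 6 lower in lactating goats, among them liver, lung, thyroid, diaphragm, masseter muscle and bridge. The part of these shifts in the calls was not tested. Without these 3 tissues 930 calls remained, 591 higher and 339 lower (1.66%), against 0.888% of all tests and 1.01% of host tests. By tissue, the share of antisense features called was 21.4% in kidney medulla (all features 15.1%), 19.3% in ovary (11.7%), 15.5% in pineal gland (7.97%), 6.63% in colon (2.59%), 6.37% in adrenal cortex (3.43%) and 5.78% in heart (2.87%). The share was 4.71% in neurohypophysis (2.73%), 4.47% in adenohypophysis (2.83%), 4% in lung (1.74%), 3.42% in diaphragm (2.33%), 3.02% in spleen (0.966%), 2.97% in masseter muscle (1.54%), 1.8% in cerebellar hemisphere (1.09%) and 1.76% in liver (1.43%). Antisense features were thus called more often than all features in each of these tissues, a difference that was not tested. A call is easier at a higher count, and the median antisense feature was above the median host and other protein-coding gene. The shares were not matched for level, and the part of level was not tested. The share was lower in omasum at 0.654% (0.173%), mandibular lymph node at 0.644% (0.176%), bridge of the brainstem at 0.568% (0.328%) and thyroid at 0.379% (0.209%). The lowest shares above 0 were those of reticulum at 0.372% (0.0949%), medulla oblongata at 0.203% (0.123%), rostral colliculus at 0.154% (0.14%) and rumen at 0.054% (0.0347%). In the mammary gland, 25 antisense features were higher and 11 lower (1.9%), against 1.05% of all features. In esophagus the antisense share was below that of all features, 3 calls (0.165%) against 0.717%.

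The calls depended on single goats. Of 2013 calls, 646 were kept when each goat in turn was left out, 225 of them in kidney medulla, 93 in pineal gland, 85 in ovary and 43 in neurohypophysis. A feature that failed the filter on low counts in such a fit was counted as not kept. Over all tissues there were 1129 calls when goat 64 was left out, 1234 when goat 54 was and 1307 when goat 2 was. In ovary 106 features were called without goat 6 and 852 without goat 73, against 368 with all goats. In pineal gland 102 were called without goat 73 and 550 without goat 3, against 305. Kidney medulla varied less than these, with 270 to 400 calls, against 410. In neck skin, where no antisense feature was called with all goats, 208 were called without goat 2. In esophagus 183 were called without goat 6 and 46 without goat 3. No antisense feature was called in 9 tissues by edgeR at an adjusted p below 0.05. At an unadjusted p below 0.05 the counts there were 114 in abomasum, 116 in adrenal medulla, 270 in duodenum, 39 in frontal neocortex, 81 in hippocampus, 137 in hypothalamus, 223 in neck skin, 123 in rhinencephalon and 220 in subcutaneous fat. DESeq2 called 5 antisense features in abomasum, 10 in adrenal medulla, 39 in duodenum, 3 in hippocampus, 5 in hypothalamus, 28 in neck skin, 30 in subcutaneous fat and 0 in frontal neocortex and rhinencephalon. Over all features the share called there was 0.00558% in frontal neocortex, 0.00846% in hippocampus, 0.00545% in rhinencephalon and 0 in the other 6 tissues.

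**Figure D4:**
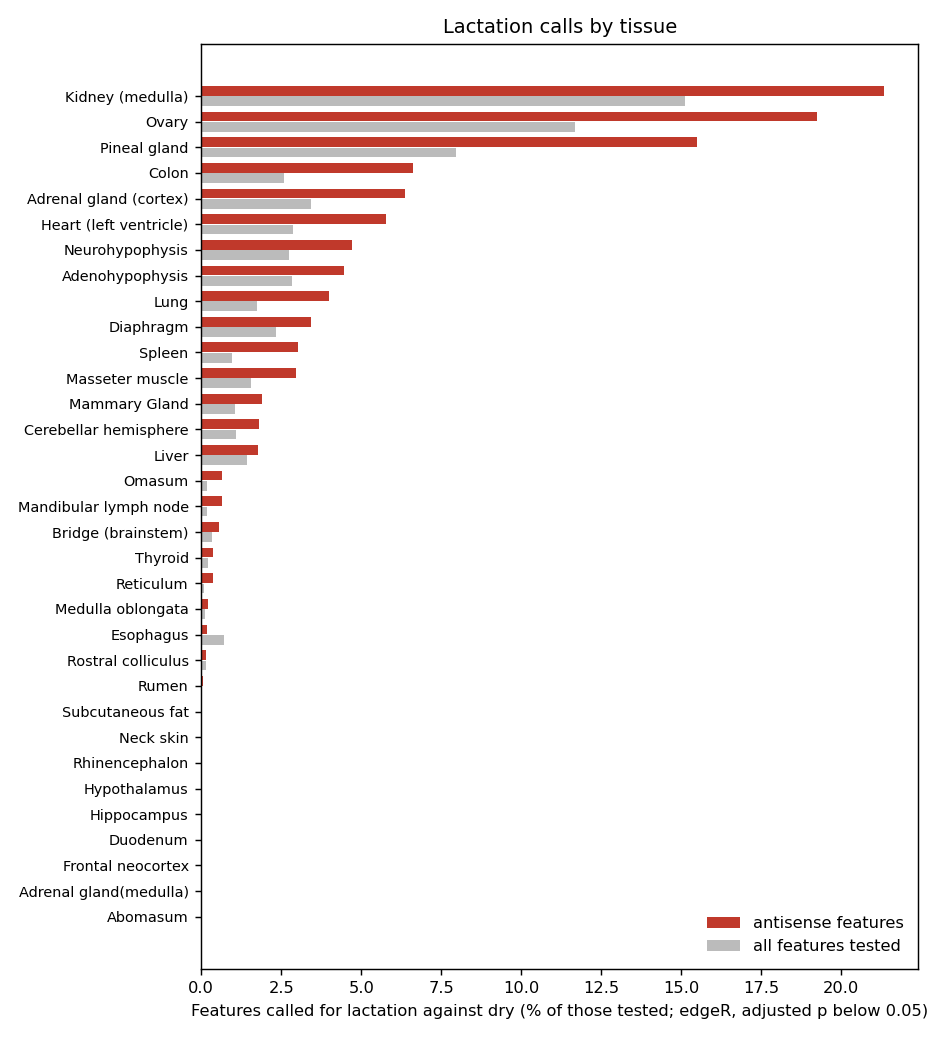
Percent of features called between lactating and dry goats (edgeR, adjusted p below 0.05; 3 goats each) in each of 33 tissues, for antisense features (red bars) and for all features tested (grey bars). Kidney medulla, ovary and pineal gland stand apart with 21.4%, 19.3% and 15.5% of antisense features called, and 9 tissues have no antisense bar.

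The single features named in the next paragraphs were among those with the largest fold changes of their tissue and were separated between the 2 sets of goats, apart from CD24-AS1, which was chosen because its host was called as well. The text keeps to those called without each goat in turn (39 of 87), a restriction chosen after their values were seen. Values are in CPM for goats 2, 3 and 6 in lactation and goats 54, 64 and 73 dry.

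The pituitary had the clearest call. GPR101 encodes an orphan G protein-coupled receptor known for its role in human pituitary growth hormone excess. In adenohypophysis GPR101-AS1 had 1503, 1331 and 1603 CPM in lactating goats, against 207, 290 and 213 CPM in dry goats. The groups were far apart, with a log2 fold change of 2.86 ± 0.14 (SE; edgeR, adjusted p = 1.42e-07). GPR101 itself had 1.09, 3.46 and 1.21 CPM in lactating goats, against 0 in all 3 dry goats. In neurohypophysis GPR101-AS1 had 1420, 1232 and 1675 CPM in lactating goats, against 143, 133 and 217 CPM in dry goats (log2 fold change 3.26 ± 0.19, edgeR adjusted p = 7.96e-07). The 2 lobes lie against each other, and 7 of their 12 libraries were closest to the other lobe. GH1, the growth hormone marker of the anterior lobe, had 2004, 1661 and 650 CPM in adenohypophysis of lactating goats, against 432, 156 and 383 CPM in dry goats, and its part in the result was not tested. SRCIN1, which encodes an inhibitor of Src kinase, had the antisense feature SRCIN1-AS1 lower in adenohypophysis of lactating goats, with 6.79, 7.15 and 6.77 CPM, against 44.6, 37.6 and 33.0 CPM in dry goats (log2 fold change -2.27 ± 0.26). RFX1-AS1, the partner of a regulatory factor X gene, was lower in neurohypophysis, with 3.38, 3.19 and 5.07 CPM in lactating goats, against 37.4, 18.5 and 20.6 CPM in dry goats.

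In the mammary gland, CSN3, the milk protein kappa-casein, had 15688, 7853 and 6088 CPM in lactating goats, against 0.205, 6.06 and 0 CPM in dry goats, so the secretory state differed. ATP2C2 encodes a Golgi calcium-transporting ATPase known from milk-producing cells of mice. ATP2C2-AS1 had 124, 81.9 and 52.4 CPM in lactating goats, against 5.73, 5.66 and 6.11 CPM in dry goats (log2 fold change 3.98 ± 0.38, edgeR adjusted p = 0.00299). ATP2C2 moved with it, with 47.3, 23.0 and 29.7 CPM in lactating goats, against 4.30, 4.49 and 1.58 CPM in dry goats (log2 fold change 3.35 ± 0.54, edgeR adjusted p = 0.0284). RFX4-AS1, the partner of another regulatory factor X gene, had 77.8, 63.5 and 41.1 CPM in lactating goats and was at 0 in all 3 dry goats. Set against a floor of 3 counts over the dry group, RFX4-AS1 was at least 292-fold higher (edgeR adjusted p = 0.00199). CD24 encodes a surface protein of mammary epithelial cells. CD24-AS1 had 3317, 2712 and 3010 CPM in lactating goats, against 698, 573 and 445 CPM in dry goats (log2 fold change 2.49 ± 0.27, edgeR adjusted p = 0.00488). ZFHX4-AS1, the partner of a zinc-finger homeobox gene, was lower, with 7.62, 12.3 and 9.54 CPM in lactating goats, against 54.1, 53.7 and 52.0 CPM in dry goats (log2 fold change -2.36 ± 0.26). Of the 36 mammary calls 7 were kept without each goat in turn, and 7 to 38 features were called with 1 goat left out, 7 of them without goat 73.

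In diaphragm the muscle marker CKM, a creatine kinase, had 958, 677 and 1322 CPM in lactating goats, against 2007, 1933 and 1594 CPM in dry goats, and its part in the following calls was not tested. TMEM201-AS1 was higher in diaphragm of lactating goats, with 101, 74.5 and 94.9 CPM, against 6.98, 18.7 and 10.3 CPM in dry goats. TMEM201 encodes a protein of the inner nuclear membrane. FOXO1 encodes a forkhead factor that turns on muscle protein breakdown and fuel switching in fasting. FOXO1-AS1 had 32.4, 29.0 and 29.5 CPM in diaphragm of lactating goats, against 5.41, 3.95 and 2.49 CPM in dry goats (log2 fold change 2.69 ± 0.33, edgeR adjusted p = 0.00115). FOXO1 had 11.7, 6.24 and 3.25 CPM in lactating goats, against 0.349, 0.515 and 0.533 CPM in dry goats, and was called in the same direction. The lymphoid feature LOC106503064-AS1 was lower in diaphragm of lactating goats, with 8.75, 7.36 and 9.95 CPM, against 846, 17.9 and 611 CPM in dry goats (log2 fold change -6.10 ± 0.95). It was also lower in heart, with 2.87, 2.05 and 16.2 CPM in lactating goats, against 77.7, 445 and 238 CPM in dry goats (log2 fold change -5.43 ± 0.72). Its levels in lymph node and spleen, given above, were far higher than in either muscle.

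In brain, DIO2 encodes the deiodinase that makes active thyroid hormone in glia. DIO2-AS1 was higher in rostral colliculus of lactating goats, with 169, 145 and 325 CPM, against 55.7, 66.1 and 70.5 CPM in dry goats (log2 fold change 1.80 ± 0.24, edgeR adjusted p = 0.00652). DIO2 itself had 17.9, 20.4 and 22.7 CPM in lactating goats, against 19.6, 23.5 and 24.2 CPM in dry goats, and was not called. RUNX2-AS1, the partner of a bone and cartilage factor gene, was higher in cerebellar hemisphere, with 62.0, 38.4 and 34.3 CPM in lactating goats, against 17.3, 14 and 15.9 CPM in dry goats. HOXB7 encodes a homeobox factor of trunk identity, and HOXB7-AS1 had 29.7, 23.4 and 17.7 CPM in medulla oblongata of lactating goats and 0 in all 3 dry goats. HOXB7-AS1 was thus at least 124-fold higher against a floor of 3 counts over the dry group.

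Some features were present in all goats of one set and absent from the other. GIN1-AS1 had 9.71, 6.65 and 4.20 CPM in colon and 13.5, 9.71 and 11.6 CPM in spleen of lactating goats, and was at 0 in the dry goats of both tissues. Against a floor of 3 counts over the 3 dry goats together, GIN1-AS1 was at least 32.9-fold higher in colon and 52.9-fold higher in spleen. LOC106503189-AS1 had 19.5, 22.9 and 24.7 CPM in ovary of lactating goats and 0 in dry goats. In mandibular lymph node the order of LOC106503189-AS1 was turned, with 0 in lactating goats and 18.9, 28.0 and 31.3 CPM in dry goats, at least 112-fold lower in lactating goats against a floor of 3 counts over the lactating group. LOC102177727-AS1 had 43.0, 31.5 and 36.6 CPM in adrenal cortex of lactating goats and 0 in dry goats, while LOC102177727 had 13.7, 32.4 and 20.4 CPM in lactating goats, against 18.1, 18.1 and 16.3 CPM in dry goats. TBL1X-AS2, the partner of a gene of a transducin beta-like protein, was higher in mandibular lymph node, with 67.1, 95.6 and 69.1 CPM in lactating goats, against 9.19, 13.8 and 14 CPM in dry goats. WFDC9-AS1 was lower in colon, with 7.34, 1.97 and 8.19 CPM in lactating goats, against 41.6, 46.7 and 35.3 CPM in dry goats.

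The pineal, ovary and kidney calls included features of genes with tissue roles. PDC encodes phosducin, a protein of photoreceptors and pineal cells. PDC-AS1 had 0, 0 and 1.47 CPM in the pineal libraries of lactating goats, against 2629, 3289 and 2625 CPM in dry goats, and PDC had 2.01, 1.67 and 2.93 CPM in lactating goats, against 31.3, 20.6 and 32.3 CPM in dry goats. NEUROD4-AS1 was at 0 in lactating goats, against 1703, 1748 and 1874 CPM in dry goats, at least 8607-fold lower against a floor of 3 counts over the lactating group. SSTR1-AS1, the partner of a somatostatin receptor gene, had 267, 105 and 140 CPM in lactating goats, against 0.474, 3.72 and 0 CPM in dry goats. These pineal differences stand beside the near absence of TPH1 in the same 3 libraries. In ovary, MIR200A-AS1, the partner of an epithelial microRNA gene, had 0.237, 0 and 0 CPM in lactating goats, against 54.3, 58.6 and 103 CPM in dry goats. In kidney medulla, LOC102172692-AS1 was at 0 in lactating goats, against 11.1, 8.07 and 5.18 CPM in dry goats, and LOC102172692 was at 0, against 19.7, 10.1 and 23.0 CPM.

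**Figure D5:**
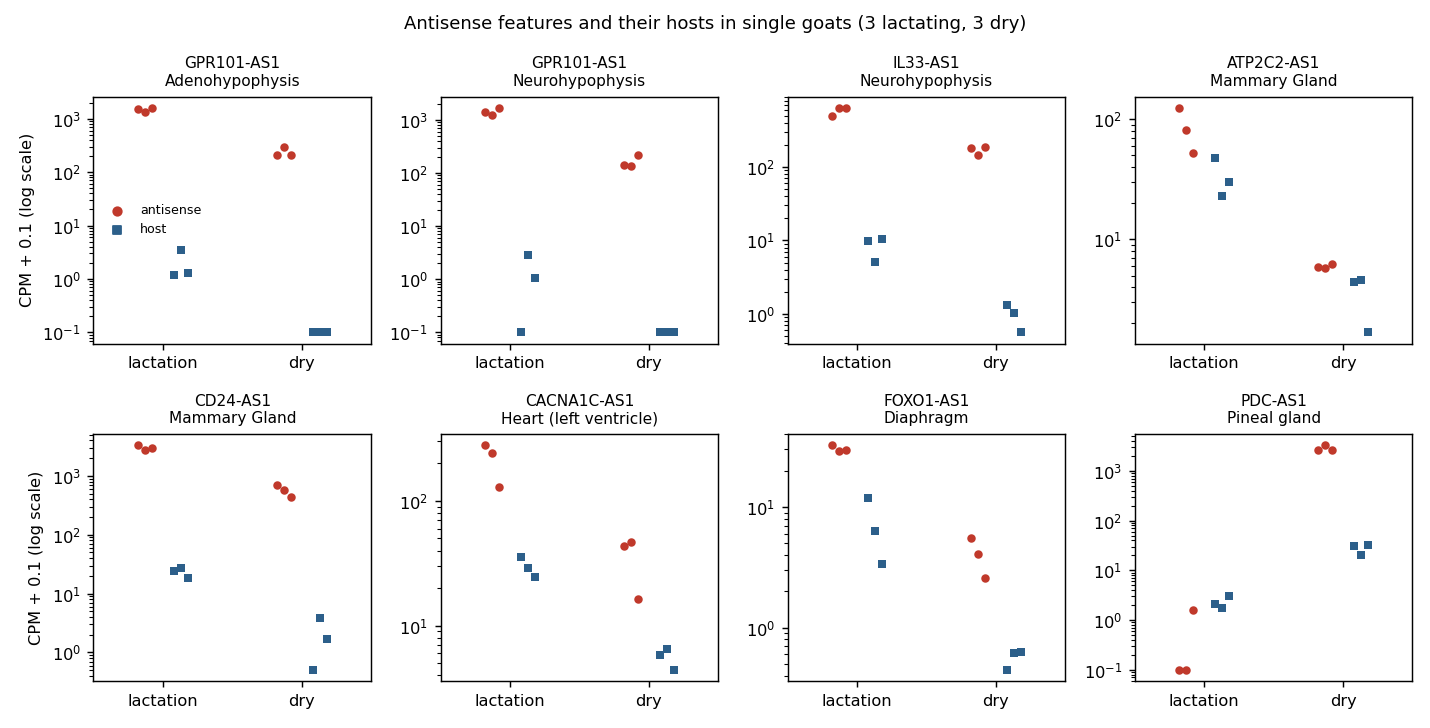
Values of single goats for 8 antisense features (red circles) and their hosts (blue squares) in the tissue named above each panel, in CPM plus 0.1 on a log scale, with 3 lactating goats on the left and 3 dry goats on the right of each panel. The antisense features are separated between the states in every panel, higher in lactating goats in 7 panels and lower for PDC-AS1 in pineal gland.

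When an antisense feature was called, its host was called with it in a minority of cases. The host passed the filter on low counts for 1015 of the 2013 calls, and was called in 128 of these (12.6%) and not in 887. Hosts were called in 2.04% of all host tests, but this share differed widely between tissues. It was 14.1% in kidney medulla, 12.1% in ovary and 8.91% in pineal gland, which gave most of the antisense calls, and 1.01% outside them. The 12.6% was not set against hosts of the same tissues, so no excess is read from it. Where both were called, 116 went in the same direction and 12 in opposite directions. Outside kidney medulla, ovary and pineal gland there were 26 such pairs, 25 of them in the same direction, and 10 kept the antisense call without each goat in turn. The pairs named next were chosen from these after their values were seen.

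Heart gave several of them. CACNA1C-AS1 had 279, 241 and 129 CPM in left ventricle of lactating goats, against 43.3, 46.7 and 16.4 CPM in dry goats (log2 fold change 2.40 ± 0.36, edgeR adjusted p = 0.00239). CACNA1C had 35.6, 28.9 and 24.5 CPM in lactating goats, against 5.78, 6.41 and 4.35 CPM in dry goats, with a log2 fold change of 2.20. ITPRIP encodes a modulator of the inositol trisphosphate receptor of calcium release. ITPRIP-AS1 had 205, 260 and 194 CPM in lactating goats, against 32.2, 42.5 and 35.8 CPM in dry goats (log2 fold change 2.31 ± 0.21), and ITPRIP was called with 2.56. MICAL3-AS1, the partner of a gene for an actin-regulating enzyme, had 100, 167 and 162 CPM in lactating goats, against 33.1, 40.9 and 24.3 CPM in dry goats, with log2 fold changes of 1.86 for the feature and 1.79 for the host.

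Endocrine tissues gave others. IL33 encodes an alarmin cytokine of the interleukin-1 family. IL33-AS1 had 505, 637 and 644 CPM in neurohypophysis of lactating goats, against 185, 148 and 185 CPM in dry goats (log2 fold change 1.91 ± 0.14, edgeR adjusted p = 4.53e-06). IL33 had 9.65, 4.90 and 10.4 CPM in lactating goats, against 1.22, 0.911 and 0.458 CPM in dry goats (log2 fold change 3.36 ± 0.61, edgeR adjusted p = 0.00737). KIF13B-AS1, the partner of a kinesin gene, was higher in adrenal cortex, with 111, 70.1 and 56.8 CPM in lactating goats, against 17.1, 14.4 and 6.89 CPM in dry goats, as was KIF13B with a log2 fold change of 1.64. RIMS2 encodes a scaffold of the exocytosis site in neurons and endocrine cells. RIMS2-AS1 was lower in adrenal cortex of lactating goats, with 71.3, 79.8 and 105 CPM, against 214, 214 and 222 CPM in dry goats (log2 fold change -1.55 ± 0.17). RIMS2 had 3.74, 5.02 and 7.96 CPM in lactating goats, against 16.2, 25.2 and 22.3 CPM in dry goats, with a log2 fold change of -2.14. The one pair called in opposite directions outside the 3 tissues was at C28H10orf10 in colon. C28H10orf10-AS1 had 22.7, 13.8 and 20.2 CPM in lactating goats, against 36.4, 30.9 and 51.2 CPM in dry goats, while C28H10orf10 had 28.0, 28.1 and 13.6 CPM in lactating goats, against 4.31, 1.90 and 4.23 CPM in dry goats. Without goat 73 the antisense call of C28H10orf10-AS1 was lost (edgeR adjusted p = 0.123). CEBPB-AS1 was higher in liver, with 717, 608 and 935 CPM in lactating goats, against 170, 188 and 365 CPM in dry goats, a call lost without goat 54 (edgeR adjusted p = 0.153).

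The difference between feature and host was tested itself, by limma on the log2 ratio. The ratio differed between lactating and dry goats in 132 of 68235 tests (0.193%), 70 higher and 62 lower, of which 53 were in ovary, 33 in kidney medulla and 32 in pineal gland. Without these 3 tissues 14 were left. Leaving out goat 54 gave 14 calls, goat 64 gave 17, goat 6 gave 34 and goat 2 gave 67. None of the 26 pairs with both partners called outside the 3 tissues had a called ratio. In 25 of these pairs both partners moved in the same direction, which makes a called ratio unlikely by construction. The ratio at C28H10orf10 in colon, where they moved in opposite directions, was not called either. With 3 goats against 3, an uncalled ratio thus does not show that partners moved together. In kidney medulla PTPRO, a phosphatase of glomerular podocytes, had 0, 0.205 and 0.210 CPM in lactating goats, against 11.9, 16.1 and 13.7 CPM in dry goats. PTPRO-AS1 there had 76.0, 57.2 and 55.5 CPM in lactating goats, against 42.1, 41.3 and 35.3 CPM in dry goats, a difference in log2 ratio of 6.61 ± 0.62 (limma adjusted p = 0.0154). This call was lost without goat 6 (adjusted p = 0.0651), goat 54 (0.0503), goat 64 (0.0509) or goat 73 (0.0766). The call of the ratio of SHANK2-AS1, next, was kept without each goat. In ovary SHANK2-AS1 was at 0 in lactating goats, against 7.56, 2.26 and 9.38 CPM in dry goats, while SHANK2, a postsynaptic and epithelial scaffold, had 16.6, 14.8 and 15.1 CPM in lactating goats, against 10.1, 7.26 and 11.5 CPM in dry goats. Of the 132 calls 7 were kept without each goat in turn. A pair that no longer passed the count filter without a goat was not tested there and was counted as not kept. For such pairs the loss was fixed by the filter, which asks for a summed count of 10 in 3 libraries. MIR200A-AS1 in ovary and NEUROD4-AS1 in pineal gland were among them, with no test when a dry goat was left out.

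Some antisense features differed in many tissues. Of the 1065 features called at least once, 605 were called in 1 tissue and 50 in at least 5. The same counts were not made for all features, and a feature tested in more tissues can be called in more. They are therefore not a trait of antisense features. NFIC-AS1, the partner of a nuclear factor I gene, was called in 14 tissues, higher in 13 and lower in 1, while NFIC was called in none of the 16 tissues in which it was tested. MED15-AS1, the partner of a Mediator subunit gene, was higher in 10 tissues and lower in 4. CAPZB-AS1, the partner of the gene of the actin-capping protein beta subunit, was higher in 12 tissues, NDST1-AS1, the partner of a heparan sulfate enzyme gene, in 11 and TBL1X-AS1 in 10, with no lower call. BCL9L-AS1, the partner of a Wnt coactivator gene, was higher in 6 and lower in 5. Tissues of a goat are not independent, so these counts say how often a feature was called and not how many animals showed it.

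With 1 value per goat, the mean log2 CPM over the 33 tissues, limma called 487 antisense features higher (20.9%) and 42 lower (1.8%) in lactating goats, of 2330 tested. Over all features 2733 were higher (8.73%) and 604 lower (1.93%) of 31305, and among hosts 162 were higher (8.54%) and 28 lower (1.48%) of 1898. These shares were not matched for level either, and the excess of higher over lower calls depended on the scaling to library totals. With TMM factors, which align the bulk of features between libraries, 213 antisense features were higher (9.14%) and 127 lower (5.45%), against 4.05% and 4.44% over all features. The median log2 difference of antisense features was 0.10 with totals and -0.00 with TMM. Leaving out a goat gave 233 to 471 calls, the fewest when goat 64 was left out (233), then goat 73 (246), goat 3 (334) and goat 54 (351). Without pineal gland, kidney medulla and ovary there were 459 calls, against 529 with all tissues. Of the 529 calls, 195 were kept without each goat and 255 were also called with TMM.

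Among the features with the largest such differences, NFIC-AS1 had a mean over tissues of 57.2, 62.0 and 51.1 CPM in lactating goats, against 30.0, 30.1 and 29.1 CPM in dry goats (log2 difference 1.22 ± 0.065, limma adjusted p = 3.28e-05). NFIC was not called (limma adjusted p = 0.635). KIF13B-AS1 had 15.4, 12.2 and 13.1 CPM in lactating goats, against 4.51, 7.25 and 5.35 CPM in dry goats (log2 difference 1.24 ± 0.15). MINK1 encodes a kinase of stress signalling, and MINK1-AS1 had 51.9, 61.0 and 41.8 CPM in lactating goats, against 27.5, 25.6 and 28.3 CPM in dry goats (log2 difference 1.18 ± 0.11). These were called with library totals and with TMM factors, and the goats of the 2 states did not overlap in any of them.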

How the data were processed

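Total RNA of 33 tissues from 6 goats was sequenced after a strand-specific library preparation, per the labels' protocols. The authors deposited estimated counts per feature for 1 library per goat and tissue, of which 36.9% of values above 0 were fractional, and an annotation of lncRNAs. They also deposited a table of natural log offsets, whose feature rows all have the same mean and so hold no feature length, and tissue specificity scores between 0 and 1 (a fraction), which were not printed. STAR, StringTie and edgeR are named in the submitters' processing notes. Their versions and roles, the genome build and the strand setting of the counting are not given in the sources used here. A deposited table named for CPM was not used.

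CPM were computed from library totals, and expected counts were rounded for edgeR. Lactation was tested per tissue with edgeR 4.0.16 (glmQLFTest, TMM, filterByExpr with a minimum count of 10) in R 4.3.3 on all features, at a Benjamini-Hochberg adjusted p of 0.05, two-sided. The SE of an edgeR fold change is its size over the root of F. Ratios were tested with limma 3.58.1 on log2 of (antisense count + 0.5) over (host count + 0.5), for pairs with a summed count of at least 10 in at least 3 libraries of a tissue. A length per feature was planned for this ratio, but none was had, so the ratio is of counts. Body-wide tests used limma with trend on 1 mean log2 CPM per goat (prior count 2). The scripts were tested on simulated data. DESeq2 1.42.0, other pseudocounts, filters, scalings, and leaving out each goat were alternatives.

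Named features followed a rule: the 12 highest means, the 8 highest and 8 lowest profile correlations, the 10 widest ratio ranges with both orders, up to 2 enriched features per tissue, up to 2 higher and 2 lower separated calls per tissue, up to 2 ratio calls per tissue, the 10 features called in the most tissues, the 10 largest body-wide calls, and members of 7 host lists. Hosts standing above their features, host classes and pairs with both partners called were added after their values were seen. The members and lists were chosen with earlier results of these data known. Goats recur across tissues: the mean correlation of deviations was 0.0403 for libraries of the same goat (3168 pairs, 9.06% above 0.1) and -0.00804 for different goats. The tissues of a goat are thus not independent. No 2 libraries were identical, and nothing says that a library was repeated, so replicate error is the spread between goats. Some features are not reported here.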

Additional observations from a re-analysis of the deposited data

Results flagged for a closer look

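In the liver group of 6 goats, 2 antisense features had a single goat far from the other 5. ONECUT1-AS1 had 372 CPM in goat 6, the lowest value, against a median of 714 CPM and a highest value of 799 CPM. PPP1R3B-AS1 had 7489 CPM in goat 2, the highest value, against a median of 2217 CPM and a lowest value of 996 CPM. Dixon's ratio was examined in 44 groups with a critical value of 0.625 for 6 samples, and chance passes it in about 1 of 20 groups.

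In 5 antisense features the lactation difference went in opposite directions in 2 tissues, with all goats separated in each tissue, and these differences between tissues were not tested. NFIC-AS1 had a log2 fold change of 2.55 in ovary and -0.96 in adenohypophysis, 3.51 apart. MED15-AS1 had 2.12 in reticulum and -1.43 in pineal gland, 3.55 apart. BCL9L-AS1 had 1.87 in heart and -1.70 in neurohypophysis, 3.57 apart. RANBP3-AS1 had 2.21 in spleen and -1.35 in adenohypophysis, 3.56 apart. MEF2D-AS1 had 2.22 in heart and -1.65 in pineal gland, 3.87 apart. The tissues were those with the highest and the lowest fold change of the feature, chosen after the values were seen.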

How the results depend on the processing

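Of 83 alternative values of the main results, 57 stayed close to the main value and 26 moved. For counts, close meant within 1.5 times the main value. For the share of counts it meant within the SD between libraries, and for the median profile correlation within 0.1. Directions were not compared. The 2013 antisense calls between lactating and dry goats became 4270 without the filter on low counts, 3496 with DESeq2, 930 without pineal gland, kidney medulla and ovary, and 1129 to 1739 with 1 goat left out. The 607 host calls became 1436, 1088, 272 and 336 to 598 under the same settings. The 132 calls of the antisense to host ratio became 259 with a pseudocount of 2, 14 without the 3 tissues and 14 to 142 with 1 goat left out. The 529 body-wide calls became 340 with TMM and 233 to 471 with 1 goat left out. The 16 enriched features became 34 with a 3-fold rule, 53 without the 28 libraries closest to another tissue, and 15 to 24 with 1 goat left out (24 without goat 2). The share of counts was 19.2% without KLHDC1-AS1 and PGK2-AS1. Fewer tissues or goats leave fewer tests or a larger error by construction, and the cause of the other shifts was not tested. The order of feature and host changed little: 55938 tests with the antisense feature higher and 7510 with the host higher with a pseudocount of 2, 57909 and 8464 without the filter, and 54728 and 7050 without the 28 libraries. The median profile correlation was 0.567 for pairs reaching 5 CPM, 0.590 as Pearson's r on log values and 0.514 without the 28 libraries. With the goat as a replicate block, 1765 pairs differed in ratio between tissues, against 1738. No paired analysis was possible because lactating and dry goats are different animals, for the comparisons of state. Of the alternatives for single named calls, 322 kept the call, the others lost it and none reversed. The alternatives that leave out libraries closest to another tissue, the 3 tissues or the 2 top features, that use TMM body-wide or that divide by gene span were chosen after seeing the data. Library depth limits features near 0.335 to 2.29 CPM, and a goat left out leaves 2 animals against 3.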
